A study of Jatropha curcas with 31 samples.

Results

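The group described here is 150 contigs of the physic nut, Jatropha curcas. Their signal was lower in the youngest seeds, rose at maturation stage III and was then held into the dry seed. They were selected on the deposited log2 values of the 21 seed arrays, out of 19838 contigs on the array. Each contig was represented by its brightest probe over those arrays, and stages III to VI had to lie within 1.5 of each other, which left 13413 contigs. The score was the lowest mean of stages III to VI minus the higher mean of stages I and II, and the 150 highest scores were taken after 2 contigs had been left out by name. Because the rule used every seed value, the levels over the stages below are a description and carry no test. Leaf was not used.

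The study followed whole seeds, staged by fruit and seed colour, on one-colour Agilent arrays whose probes had been designed from a seed transcriptome. Stage I (green-white), stage III (green-black) and stage IV (yellow) had 3 arrays each, and stage II (green-half), stage V (brown) and stage VI (dry) had 4 each. The seeds came from 1 selected plant per the methods, and their labels give no toxicity. Leaf of toxic and of non-toxic plants had 5 arrays each, and as contigs were assembled from seed RNA only, transcripts made in leaf alone could not be seen. The labels name no treatment or transgene. The leaf plants are not described further, so the p-values for leaf measure only the spread between these samples, which may be technical. Numbers in the leaf array names recur within a group, and whether equal numbers mean the same plant is not stated. The letters in those names differ between toxic and non-toxic leaf throughout, so toxicity and what they stand for cannot be told apart. The seeds were bulk tissue, in which fewer cells of a type and less RNA per cell cannot be told apart.

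A maturing oilseed first grows its embryo and endosperm, then fills them with storage protein and oil, and finally dries. In the filling and drying phases the hormone abscisic acid is known to promote the making of late embryogenesis abundant (LEA) proteins, heat shock factors, antioxidant enzymes and protective sugars, which guard membranes and proteins while water is lost. Transcripts made in that period are partly stored in the dry seed and are available when it takes up water again.

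Between 47.9% and 69.6% of the probe spots of an array were well above background. The 8 contigs named as oleosin, vicilin or LEA protein were taken as markers of a filling seed, 1 of them in the group. Their median level was 10.93 at stage I, 13.43 at stage II, 14.46 at stage III and 6.03 in leaf on the log2 scale. Most of the rise of that median came between stages I and II. The 8 did not read alike. Contig00699 lay between 10.27 and 10.75 at stage I and between 9.63 and 10.09 in leaf. Contig00783 lay between 17.51 and 17.64 at stage I and between 14.72 and 15.73 in leaf. The other contigs were higher on every stage III array than on every stage I array. Of these, the vicilin contig00303 fell to between 4.78 and 5.69 in the dry seed. Only 2 contigs carried a name of the leaf markers, with a median of 12.66 in leaf, and 1 of them was higher in leaf than at every stage. Of 14 contigs named for seed coat enzymes (chalcone synthase, anthocyanidin and leucoanthocyanidin reductase), none (0) was in the group. Their medians lay between 6.69 and 8.80 over the stages and at 8.43 in leaf. For 7 of the 14, leaf was higher than every stage, so the names do not mark seed coat alone in these data.

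1 library has to be named before the results. Stage I replicate 3 was the highest of the 3 stage I arrays for 121 of the 150 contigs, against 29.2% of all contigs. It lay more than 2 log2 units above both other stage I arrays for 32 of the 150 (21.3%), and such a gap was found for 0.751% of all contigs. The median of the group was 6.05 in replicate 1, 5.92 in replicate 2 and 7.14 in replicate 3. Of the 8 contigs taken as markers of a filling seed, 7 were also highest in that array. The margins ranged widely. The oleosin contig12313 read 10.19, 10.08 and 13.45 in the same order, and contig00783 read 17.60, 17.51 and 17.64. The part of this array in the results was not tested. Without it, 148 of the 150 contigs were selected again. The rule favours that outcome, since the score subtracts the higher of stages I and II. Stage II lay below stage I in only 19 of the 150. At stage II, replicate 1 was the lowest of 4 arrays for 111 of the 150, with medians of 7.05, 7.98, 8.00 and 7.56 in replicates 1 to 4. Over stages III to VI the medians of single arrays stayed between 10.34 and 11.06. In the intensities read from the scanner files, stage I replicate 3 was likewise the highest for 123 of the 150.

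**Figure D1:**
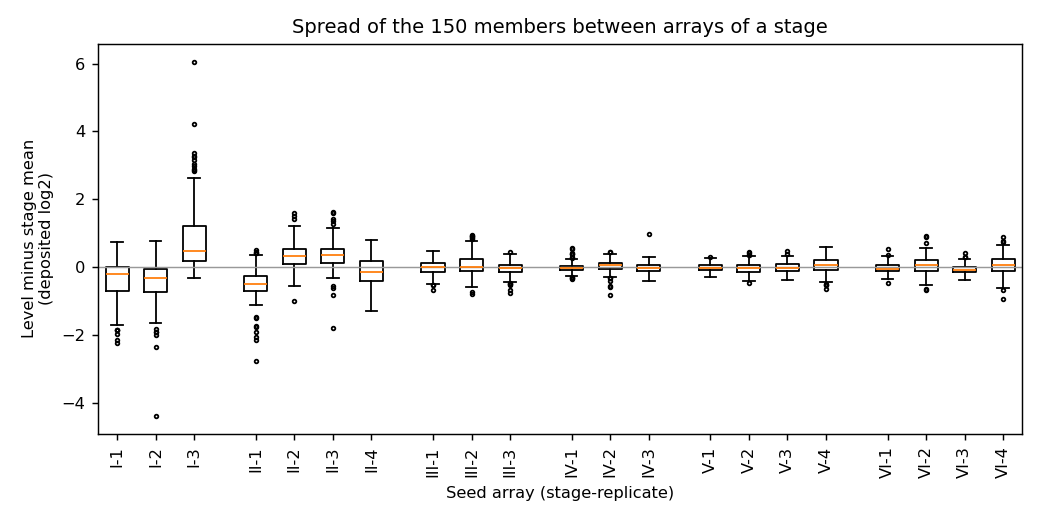
Box plots of the level of the 150 contigs minus their own stage mean (deposited log2 values) for each seed array, named by stage and replicate; boxes span the quartiles, lines the medians, whiskers reach 1.5 times the box and points lie beyond. Stage I replicate 3 sits above its stage (median 0.47) and stage II replicate 1 below (median -0.51), while the arrays of stages III to VI lie close to 0.

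The step itself lay between stages II and III. The median level of the group was 6.31 at stage I, 7.57 at stage II, 10.32 at stage III, 10.83 at stage IV, 10.95 at stage V and 10.80 at stage VI, whereas the median of all contigs stayed between 7.79 and 7.87. From stage II to III the contigs rose by 2.73 (median) with a range of 1.84 to 6.14. The score had a median of 2.37, which is 5.17-fold, and ran from 1.83 (3.56-fold) to 6.0 (64.1-fold). In every one of the 150, all 14 arrays of stages III to VI lay above all 7 arrays of stages I and II, which was so for 7.43% of all contigs. The rule favours that outcome, and it is given as a description.

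The limits of the group were not sharp. The last contigs taken, contig20182 and contig14286, had scores of 1.84 and 1.83. The first ones left out, contig12999 and contig01188, both had 1.83 as well. On the other limit, contig15089 was kept with stages III to VI spanning 1.498, and contig13466 was left out at 1.507. A further 126 contigs scored as high as a member and were left out for varying more than the limit over stages III to VI.

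**Figure D2:**
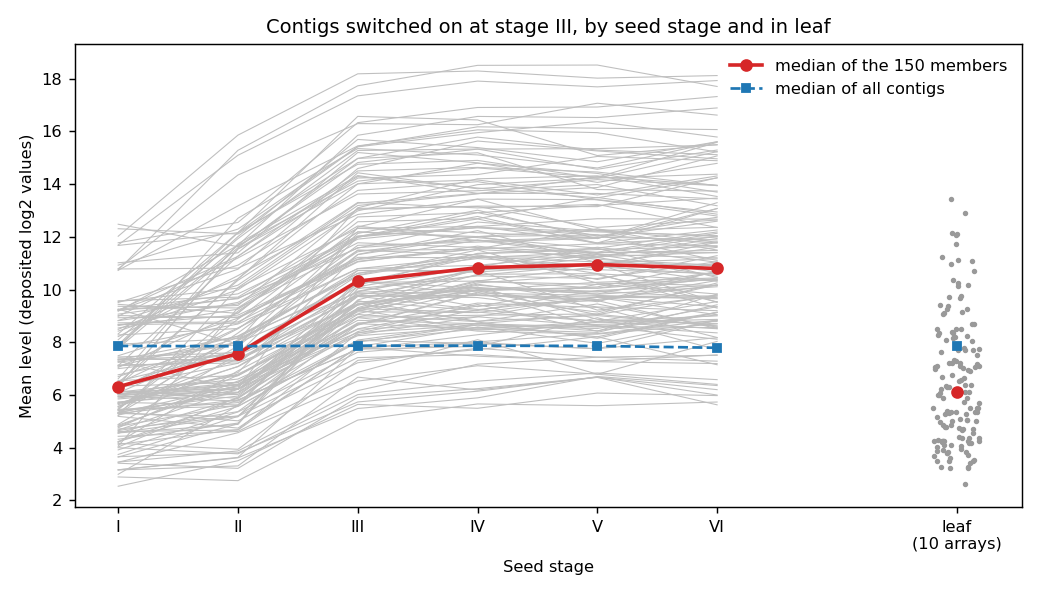
Mean level (deposited log2 values) of each of the 150 contigs over the 6 seed stages (grey lines) and in 10 leaf arrays (grey points), with the median of the group (red) and of all 19838 contigs (blue). The red median climbs from 7.57 at stage II to 10.32 at stage III and stays near 11, and in leaf it is 6.10, below the blue 7.86.

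Most of them were not silent before stage III, and their stage I means ranged from 2.54 to 12.48. For 65 of the 150, stage II was already more than 1 above stage I, for 35 more than 2 and for 22 more than 3. Without stage I replicate 3 these numbers were 79, 40 and 28. In 127 of the 150 the step from II to III was still larger than that from I to II, and in 19 stage II lay below stage I. The 65 contigs that had begun to rise were brighter, with a median of 12.19 at stage III against 9.61 in the other 85. Background limited the low end. At stage I, 15 of the 150 were well above background on no array and 109 on every array, and 8 were so on no array of stages I and II together. At stages III to VI, 146 of the 150 were above background on every array. 1 of the 150, contig03152, was above background on no stage III array, so its step at that stage was not measured.

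Once raised, the levels changed little, which the rule required by holding stages III to VI within 1.5 of each other. Within that limit the range over these stages had a median of 0.98 and reached 1.498. Stage VI was the highest of the 4 late stages for 52 contigs, stage IV for 44, stage V for 34 and stage III for 20. From stage III to VI the median change was 0.32, and 97 of 150 were higher in the dry seed than at stage III. Between the brown and the dry seed, 77 were higher and the others lower, with a median change of 0.08. The median standard deviation within a stage was 0.50 at stage I and 0.48 at stage II for the group, against 0.17 and 0.27 for all contigs. At stage IV it was 0.13, against 0.21 for all contigs.

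Names were available for a minority. Of the 150, 52 (34.7%) had an entry in the annotation tables that were read, against 26.7% of all contigs, 43 had a protein or enzyme name, and 26 were paired with a RefSeq gene of the XTBG_Jcur_1.0 assembly. An enzyme name rests on an automatic assignment from sequence similarity. The contigs had a median length of 669 bp, against 563 bp overall. In 66 of them (44.0%) the brightest probe was an antisense one relative to the contig as assembled, against 38.7% of all contigs. Here and below, direction was inferred from the probe position and not read from a label. Positions at multiples of 500 were taken as sense and all others as antisense, after the spacing given in the methods. Contigs can be pieces of 1 gene. Contig00250, contig00251 and contig00252 were paired with the same RefSeq gene, LOC105637902, and 11 of the 150 stood in 5 runs of consecutive contig numbers.

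For 4 of the 150 the study had designed primers for quantitative PCR, and these are the only sequences of members that were read here. They are shown because they mark the transcripts behind a contig number, including NCED6, phosphofructokinase PFK2 and the wall galactosyltransferase, and are written 5′ to 3′ in lower case.

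contig02415 (NCED6) forward: tggcagaaggaggtgaagtc

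contig02415 (NCED6) reverse: acttgctccatgtccaatgc

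contig01636 forward: gtgacagggactcgggttta

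contig01636 reverse: cgccaaaaggggatatgtaa

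contig01324 (PFK2) forward: atcgggctggttagtgacag

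contig01324 (PFK2) reverse: attggaagaagttgcgaagg

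contig00057 (xyloglucan galactosyltransferase) forward: atggccgttcatccaagtaa

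contig00057 (xyloglucan galactosyltransferase) reverse: ataagagaccgcaagcagga

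The largest step belonged to contig04359, annotated as 4-hydroxyphenylacetaldehyde oxime monooxygenase, an enzyme known from cyanogenic glucoside synthesis in sorghum. Its log2 values were 3.99, 4.85 and 8.70 at stage I, and 4.19, 7.45, 7.50 and 5.81 at stage II. At stage III they were 12.31, 12.42 and 12.40. Stages IV to VI ranged from 12.13 to 13.52, and the 10 leaf arrays from 3.24 to 4.44. No leaf array was above background, and stage I replicate 3 was the only stage I array above 5. The early arrays spread widely and the late ones hardly at all, and the groups did not overlap. In the scanner intensities, normalized over all arrays, stage III was 95.9-fold above stage II. The brightest probe of contig04359 was an antisense one. Its sense probes had scores of -1.50 and 2.26 at lower means (2.96 and 4.93 against 10.4).

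The second was contig02477, a cytochrome b5, a small electron carrier of the endoplasmic reticulum that serves desaturases and hydroxylases. Its values were 4.15, 3.50 and 6.02 at stage I, between 3.90 and 5.47 at stage II, and 9.98, 10.19 and 9.94 at stage III. It went on to 10.72 to 11.67 in the dry seed, its highest stage. Leaf stayed between 3.44 and 4.31, with no array above background. Its brightest probe was an antisense one, and no other probe of this contig had a score above 1. Another antisense probe had a score of -8.05 and a lower mean (5.73 against 8.61). The sense probes had scores of -0.75, 0.91 and -3.25, so the contig did not read alike along its length.

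Contig02026 is named as a LEA protein of the D-34 type. It lay at 5.21, 4.92 and 7.03 at stage I and between 5.12 and 6.19 at stage II. At stage III it reached 10.52, 9.94 and 10.36, and it remained between 10.74 and 11.46 through stages IV to VI. In leaf it was between 2.95 and 4.64 and never above background. Its brightest probe was an antisense one, and its 2 sense probes had scores of -0.36 and 0.13.

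Contig21415 was annotated as geranylgeranyl diphosphate synthase, which makes the precursor of diterpenes, carotenoids and gibberellins. Stage I read 3.35, 3.61 and 6.0, stage II between 4.43 and 5.54, and stage III 10.22, 9.82 and 9.71. It was highest at stage IV, between 10.66 and 10.75, and fell to between 9.03 and 9.46 at stage V. No leaf array was above background, the highest value there being 4.31.

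The other 6 of the 10 largest steps have no name here. Contig06315 read 4.83, 4.17 and 9.23 at stage I, 7.24 to 8.59 at stage II and 12.91, 13.39 and 13.01 at stage III. Its 3 other antisense probes had scores between 4.82 and 5.76, and its 5 sense probes between 1.18 and 2.32. Contig01805, paired with LOC105649559, was brighter, with 7.04, 7.94 and 12.55 at stage I and 15.87, 16.07 and 15.62 at stage III, and 4.50 to 5.71 in leaf. Contig19695, contig03655, contig07081 and contig20216 had scores between 4.15 and 4.21. In leaf contig07081 lay between 9.41 and 10.99, close to its dry seed (11.10 to 11.23). Contig19695 lay between 6.91 and 9.22 in leaf, below its dry seed (9.29 to 9.88) and above its stages I and II (4.59 to 5.79). Contig20216 was dim, with 1 of 3 stage I arrays and 1 of 4 stage II arrays above background and 7.73 to 7.89 at stage III.

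**Figure D3:**
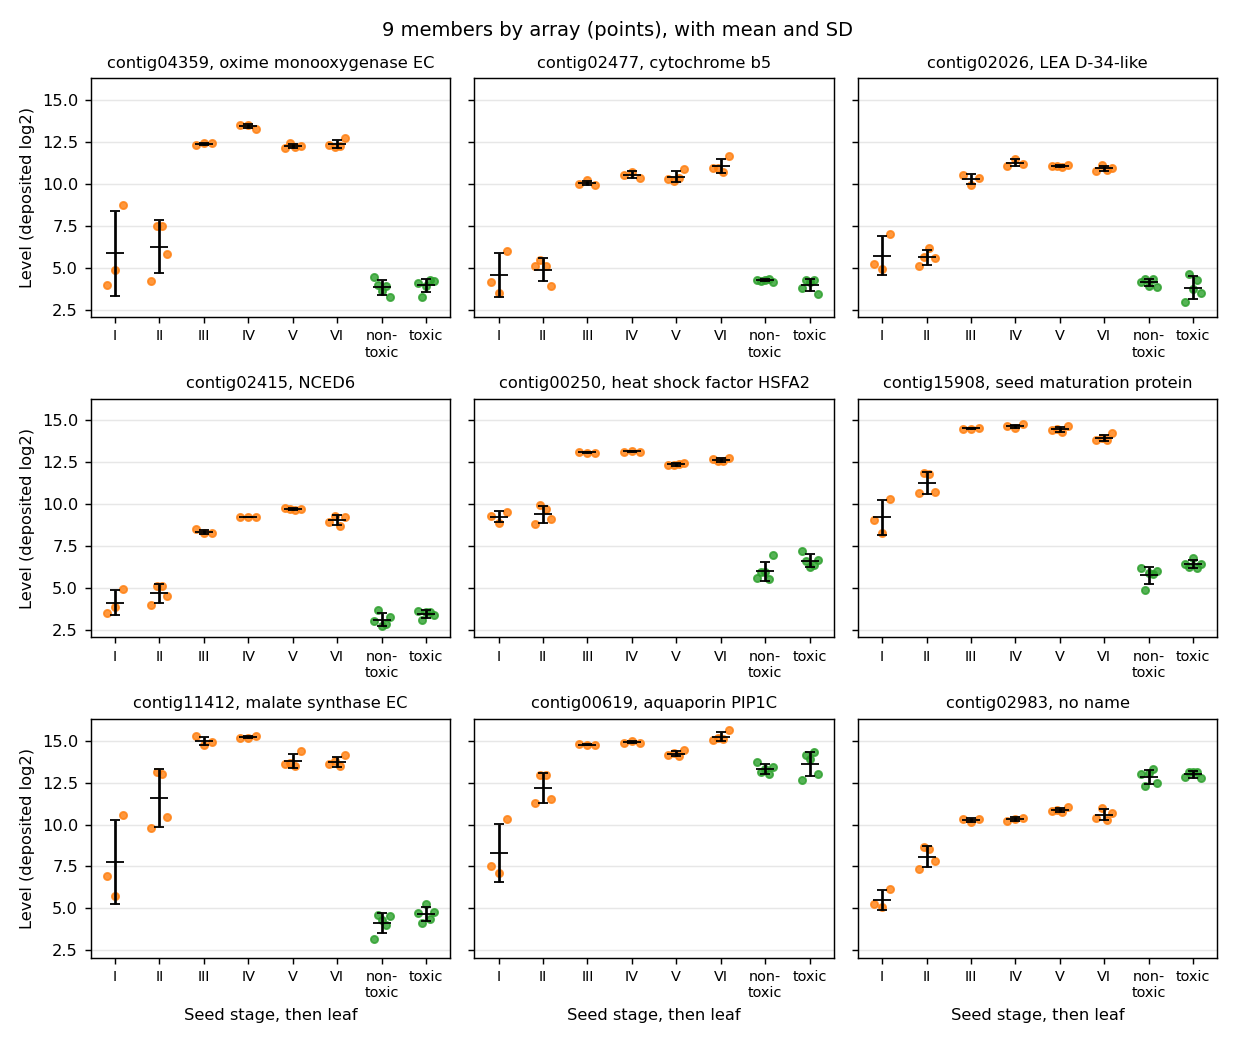
Level (deposited log2 values) of 9 contigs on each array (points) at seed stages I to VI (orange) and in non-toxic and toxic leaf (green), with mean and SD of each group of 3 to 5 arrays. Contig04359 reaches at most 8.70 at stages I and II and lies at 12.13 or above from stage III, whereas contig02983 is higher in leaf (12.31 to 13.29) than at any seed stage.

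Lists of annotated contigs were counted next, and the share with a score above 1 and stages III to VI within the limit is set against 2.2% of all contigs. The count among the 150 is set against 0.756% of all contigs and 0.98% of those with an entry in the tables. The desiccation and stress list had 7 contigs of 64 with such a score (10.9%), and 6 of the 64 (9.38%) were among the 150. The transport list had 9 of 172 (5.23%) and 4 in the group, hormones 8 of 219 (3.65%) and 4 in the group, and transcription factors 5 of 141 (3.55%) and 3 in the group. Phenylpropanoids and seed coat had 6 of 217 (2.76%) and 5 in the group, cell wall 3 of 192 (1.56%) and 1 in the group, and proteases and defence 1 of 78 (1.28%), which was in the group. Oil bodies had 1 of 10 (10%) and storage proteins 1 of 12 (8.33%), shares near that of the desiccation list in far shorter lists. Fatty acid and oil synthesis had 3 of 127 (2.36%), photosynthesis 1 of 58 (1.72%) and sugars and starch 0 of 172. None (0) of the 150 came from these last 5 lists. The median score was -0.47 for the desiccation list, -2.60 for storage proteins and -0.73 over all contigs. The lists overlap, since they were matched by words in names and Gene Ontology terms. A contig in a list therefore need not act in the process that names it. The transport list holds the cytochrome P450 contigs contig00076 and contig00673, and the hormone list holds the aquaporin contig00619. The phenylpropanoid list holds contig00673, named for brassinosteroid synthesis, and contig00058 and contig02951, annotated both as peroxidase and as peroxiredoxin.

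Heat shock factors, which switch on chaperone genes, were represented by the 3 contigs paired with 1 gene. Of these, contig00250 is named after the Arabidopsis factor HSFA2, and contig00251 is named only as a heat shock factor. Contig00250 read 9.30, 8.89 and 9.55 at stage I and 8.81, 9.93, 9.72 and 9.13 at stage II. At stage III it read 13.13, 13.06 and 13.05, and at stage VI 12.54 to 12.76. Leaf lay far lower, between 5.55 and 7.21, below the seed of stage I. Contig00251 followed with 8.64, 8.30 and 9.06 at stage I and 12.28, 11.56 and 12.12 at stage III. Contig00252 followed at a higher level, 10.95, 10.69 and 11.41 against 15.26, 14.96 and 15.38. They share a gene, and the counts above include contig00250 and contig00251 separately in both the desiccation and the transcription factor list.

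Contig15908, a seed maturation protein matched to SMP1 in RefSeq, was already higher at stage II than at stage I. It read 9.03, 8.29 and 10.33 at stage I, 10.68, 11.84, 11.79 and 10.73 at stage II and 14.46, 14.50 and 14.55 at stage III. Stage VI was lower again, between 13.80 and 14.21, and leaf lay between 4.88 and 6.78. Neither stages I and II nor stages II and III overlapped.

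2 contigs of the group were annotated both as peroxiredoxin, an enzyme that reduces peroxides through a cysteine, and as peroxidase, and contig00058 also as a thioredoxin-like protein of the chloroplast. Contig00058 read 7.83, 7.60 and 7.99 at stage I, 10.86, 10.71 and 10.82 at stage III and 11.97 to 12.13 in the dry seed, its highest stage. In leaf it lay between 9.43 and 11.06, overlapping stage III. Contig02951, which was picked for the text after its values were seen, was among the brightest, with 16.40, 16.19 and 16.30 at stage III after 9.70, 10.30 and 12.37 at stage I. Unlike contig00058 it was low in leaf, between 4.47 and 6.20.

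Among hormone genes, contig02415 encodes a 9-cis-epoxycarotenoid dioxygenase (NCED6), the enzyme whose cleavage of carotenoids limits abscisic acid synthesis. No stage I array was above background and 2 of 4 were at stage II, where values lay between 3.98 and 5.12. Stage III read 8.49, 8.25 and 8.30. Stage V was the highest, between 9.64 and 9.78, and the dry seed held 8.69 to 9.32. In the scanner intensities stage III was at least 53.1-fold above stage I, a bound set by the dimmest signal above background on each array. Leaf lay between 2.72 and 3.68, none above background, and the contig was among the 5 lowest of the group in leaf. Contig00346 is named after EDL3, an F-box protein of abscisic acid signalling in Arabidopsis. It read 8.56, 8.60 and 9.79 at stage I, 10.93 to 11.38 at stage II and 13.55, 13.57 and 13.76 at stage III, and leaf lay between 10.48 and 11.63, alongside stage II. Contig00673 is named after CPD, a cytochrome P450 of brassinosteroid synthesis in Arabidopsis. It rose from 6.62, 6.61 and 7.07 at stage I to 9.74, 9.83 and 9.79 at stage III. Leaf was nevertheless higher than any seed stage, between 11.31 and 12.24. The probe was an antisense one with a mean of 9.38. Other antisense probes of contig00673 had scores of 1.97, 0.97 and -0.52 at means of 9.30, 5.67 and 8.32. Its sense probes had scores between -0.41 and 0.88.

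A second kind of transcription factor was contig02616, named after the B-box protein STH2, which acts in light signalling in Arabidopsis. It was flat at 5.87, 5.91 and 5.88 at stage I, lay between 6.01 and 6.55 at stage II and rose to 9.37, 8.31 and 9.49 at stage III. Its highest stage was V, between 9.28 and 9.63. Leaf was between 6.60 and 7.55, above stage II and below stage III.

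In phenylpropanoid metabolism, contig00076 is a cytochrome P450 named after CYP82C4. It had 2 of 3 stage I arrays above background, with 4.85, 3.74 and 5.35, and rose to 8.47, 9.01 and 8.53 at stage III and 9.73 to 10.05 at stage IV. It returned to between 8.42 and 8.72 in the dry seed. Leaf lay between 3.60 and 4.63, never above background. Contig13208, annotated as flavonol synthase, read 5.41, 5.33 and 5.95 at stage I, 6.47 to 7.99 at stage II and 9.88, 9.73 and 9.68 at stage III. Leaf spread widely for it, from 6.59 to 9.43.

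Further enzymes were picked for the text after their values were seen. Contig11412 was annotated as malate synthase, the glyoxylate cycle enzyme known for turning stored oil into sugar in seedlings. It read 6.95, 5.77 and 10.59 at stage I and 9.81, 13.10, 13.01 and 10.43 at stage II, so that both early stages were spread over several log2 units. From stage III, at 15.25, 14.76 and 14.92, the spread was small, and the dry seed held 13.46 to 14.11. Leaf stayed between 3.16 and 5.24. 4 contigs were annotated as (S)-2-hydroxy-acid oxidase, the family of glycolate oxidase, a peroxisomal enzyme. Contig13551 read 4.63, 4.90 and 4.73 at stage I and 9.01, 10.01 and 9.37 at stage III. Contig13552 read 4.88, 4.89 and 4.79 and then 8.60, 9.17 and 8.73, and contig13555 read 6.86, 6.50 and 6.72 and then 10.52, 10.60 and 10.73. Contig20182, the last but 1 in the ranking, read 4.95, 4.59 and 4.90 and then 8.48, 8.43 and 8.19. In these 4, stage I replicate 3 did not stand above the other arrays. In leaf contig13555 lay between 8.33 and 9.51 and contig13551 between 2.88 and 5.08. Whether they are pieces of 1 gene is not given by the tables.

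Contig13452 was annotated as inositol 3-alpha-galactosyltransferase, or galactinol synthase, the first enzyme on the way to the raffinose sugars of drying seeds. It was dim, with 1 of 3 stage I arrays and 1 of 4 stage II arrays above background, and read 6.93, 8.01 and 6.99 at stage III and 3.92 to 5.63 in leaf. Contig03833, an aldehyde dehydrogenase, which oxidizes reactive aldehydes, read 7.99, 7.66 and 8.99 at stage I, 9.75 to 11.25 at stage II and 13.13, 12.90 and 13.10 at stage III. It was highest in the dry seed, between 14.06 and 14.47, and its leaf values of 10.56 to 11.76 overlapped stage II. Contig01080, a saccharopine dehydrogenase, known from lysine breakdown, read 4.37, 4.17 and 5.46 at stage I and 9.54, 9.38 and 9.37 at stage III, and 6.97 to 8.28 in leaf, above its stage II. That was an antisense probe, and no other probe of contig01080 showed the step. Another antisense probe, nearly as bright (mean 8.09 against 8.21), had a score of -1.05, and the sense probes had -0.305 and 0.243. Contig00016 is named after the acyl-CoA-binding protein ACBP1, a carrier of activated fatty acids. It changed from 8.50, 7.89 and 8.44 at stage I to 11.15, 11.98 and 11.18 at stage III, and eased to between 10.60 and 10.69 in the dry seed. Contig02248 is named after KU70, which binds broken DNA ends for their repair. It read 8.60, 8.46 and 8.95 at stage I, 11.06, 11.48 and 10.94 at stage III and 11.76 to 11.88 in the dry seed, while leaf stayed between 7.94 and 8.62.

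Transport and the cell wall had few members. Contig00619 is named after PIP1C, an aquaporin that lets water cross the plasma membrane. It read 7.51, 7.13 and 10.31 at stage I, 11.28, 12.93, 12.92 and 11.53 at stage II and 14.78, 14.74 and 14.74 at stage III, and 15.01 to 15.62 in the dry seed. In leaf it was the brightest of the 150, between 12.64 and 14.33, still below stage III. Contig01751, matched to a calcium channel name, changed from 8.99 to 9.61 at stage I to 11.75, 11.17 and 11.86 at stage III. Contig00057, a xyloglucan galactosyltransferase that decorates a wall polysaccharide, rose from 7.46, 7.95 and 8.37 to 10.23, 10.17 and 10.08 and peaked at stage V, between 11.50 and 11.65. Contig00982, in the protease list by similarity to an aspartyl protease of Arabidopsis, read 3.46, 4.82 and 5.36 at stage I and 9.18, 7.90 and 9.04 at stage III.

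Contig14286, the last of the 150, was annotated as an enzyme of phospholipid synthesis that makes CDP-diacylglycerol. No array of stages I and II was above background for it, and it read 6.08, 7.29 and 6.21 at stage III. In the scanner intensities stage III was at least 7.84-fold above stage II. The largest such bounds against stage I, where no array was above background, were those of contig22040 (at least 254-fold) and contig13843 (at least 182-fold), both without a name. Contig22040 read 3.16, 2.58 and 3.23 at stage I, 5.08 to 6.01 at stage II and 9.77, 10.70 and 9.92 at stage III. Contig13843 read 2.88, 3.89 and 4.16, then at most 6.25, then 9.61, 9.53 and 9.59.

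The brightest contigs of the group have no name here and were picked after their values were seen. Contig15759 showed how far the early arrays could differ, with 9.08, 6.36 and 16.80 at stage I and 14.31, 16.33, 16.34 and 14.16 at stage II. At stage III it read 17.78, 17.64 and 17.78 and in leaf 2.11 to 5.84. Contig21540 read 10.69, 10.11 and 15.28, then 14.95 to 16.67, then 18.15, 18.15 and 18.26. Contig14260 read 10.69, 10.35 and 14.04, then 14.21 to 15.92, then 17.39, 17.08 and 17.58. In all 3 of them stage I replicate 3 stood 3 or more log2 units above the other stage I arrays.

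Contig01636, one of the contigs with primers and paired with LOC105638441, read 11.21, 10.78 and 13.33 at stage I and 16.27, 16.33 and 16.41 at stage III. Contig01324, a phosphofructokinase of glycolysis, read 6.14, 6.09 and 7.10, then 8.24 to 8.91 at stage II, then 10.83, 10.62 and 10.94, and was highest in the dry seed, between 11.84 and 12.04.

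Other probes of the same contigs read the same stages and are given as a description. In 117 of the 150 there was a further probe. Of 115 probes in the direction of the brightest one, 87 had a score above 1 and the median was 1.91. Of 239 in the other direction, 56 did and the median was 0.28, at a median level of 4.82 against 8.06. Over all probes of the array 2.29% had a score above 1. In 47 of the 117 no further probe had a score above 1.

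Leaf was then set beside the seed. The leaf mean of the group had a median of 6.10, against 7.86 for all contigs, and ranged from 2.61 to 13.45. In 104 of the 150 (69.3%) leaf lay at or below the higher of stages I and II, where 55% of all contigs did. In 42 it lay between, and in 4 (2.67%) at or above the lowest of stages III to VI, against 70.2% of all contigs, most of which have no such step. The next 150 contigs in the ranking, with scores of 1.25 to 1.83, are given beside them. Of those, 23 had leaf at or above the lowest of stages III to VI, and 84 at or below stages I and II. Their median was 7.19 in leaf against 6.10, and 9.06 against 10.21 at the lowest late stage, so the levels differed on both sides. No leaf array was above background for 25 of the 150 (16.7%), against 12.4% of all contigs, and every leaf array was for 68 (45.3%), against 65.0%.

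**Figure D4:**
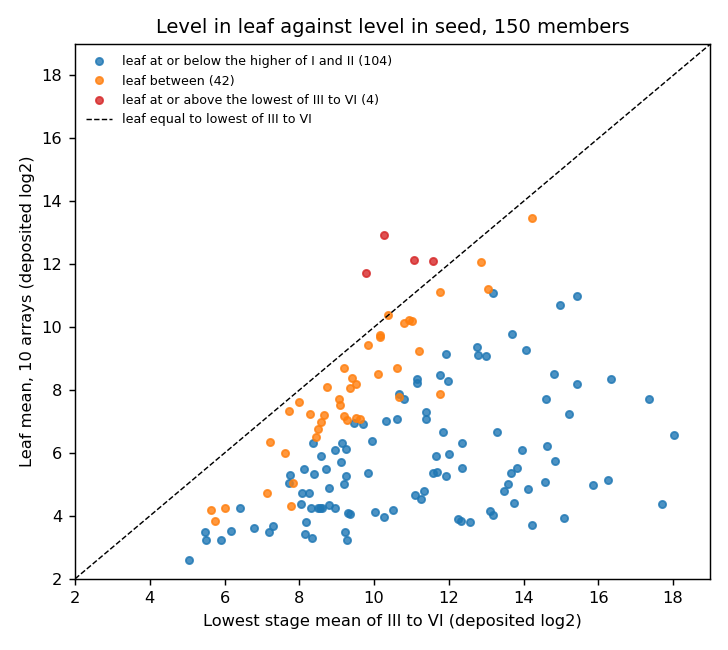
Mean of 10 leaf arrays against the lowest stage mean of III to VI (both deposited log2 values) for the 150 contigs, coloured by where leaf lies relative to the seed stages; the dashed line marks equal levels. 4 points lie above the line, 42 lie between the early and the late seed level, and 104 lie at or below the early seed level.

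The 4 contigs as high in leaf as in the late seed were contig02983, contig03031, contig03884 and contig00673. Contig02983, without a name, read 5.25, 5.11 and 6.16 at stage I, 7.34, 8.66, 8.57 and 7.81 at stage II and 10.33, 10.16 and 10.32 at stage III. All 10 of its leaf values, from 12.31 to 13.29, lay above all of its seed values, whose highest was 11.05. Contig03031 read 8.79 to 9.07 at stage I, 10.55 to 11.34 at stage III, and 11.46 to 12.92 in leaf, overlapping its dry seed of 11.79 to 12.18. Contig03884, annotated as NADH dehydrogenase, a respiratory enzyme, lay between 11.71 and 12.31 in leaf and between 11.50 and 11.66 at stage III. With contig00619 and contig16795 (11.80 to 12.51 in leaf), the first 3 of these were the highest of the group in leaf.

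At the low end were contig15816, contig03468, contig07579, contig11591 and contig02415, none with a leaf array above background. Contig15816 was dim throughout, with 5.16, 5.07 and 4.91 at stage III and 1 of 3 arrays above background there. Contig03468 was not, at 9.14, 9.61 and 9.09 at stage III and 2.60 to 3.88 in leaf. Contig07579 and contig11591 read 5.48 to 6.25 at stage III, and no array of stages I and II was above background for either.

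Toxic and non-toxic leaf were compared by limma on the scanner intensities, adjusted by Benjamini-Hochberg over all probes. None (0) of the 150 passed an adjusted p of 0.05, and 0% of all contigs did. At an unadjusted p under 0.05 there were 7 of the 150 and 372 of 19838. The groups of 5 arrays overlapped for all 150, and were separate for 0.262% of all contigs. The median difference, toxic minus non-toxic, was 0.16 in the group against 0.00 over all contigs, with toxic leaf higher in 97 of the 150 and in 10068 of all 19838. In simulated leaf arrays, 33% of the added differences of 2 (log2) passed the test and 0% of those of 1. Their spread was taken from the intensities before normalization and drawn separately for each array. The leaf arrays of 1 slide deviated together, which the simulation left out. How large a difference the test run here could miss is therefore not settled by these shares.

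The smallest p of the group was that of contig01636. On the scanner scale it read 8.99, 6.64, 7.16, 5.93 and 8.23 in non-toxic leaf and 10.24, 8.94, 9.42, 8.76 and 10.66 in toxic leaf. Toxic leaf was higher by 2.21 ± 0.61 (SE, n = 5 and 5; limma adjusted p = 1, unadjusted p = 0.00501), and 1 non-toxic array lay above 2 toxic ones. On each of the 4 slides every toxic array stood above every non-toxic one. The contig was picked for its p, and how many of all contigs share that order was not counted. Fitted on their own, slides 1 to 3 gave a difference of 1.72 (limma adjusted p = 0.658). Slide 4 gave 3.05 (limma adjusted p = 0.845). The name numbers of the leaf arrays on slide 4 also occur on slides 1 to 3, so these fits may share plants. Contig14308 differed by 1.55 ± 0.66 (limma adjusted p = 1) and contig05204 by 0.81 ± 0.28 (limma adjusted p = 1), both with toxic leaf higher. Contig21932 went the other way, with a difference of -1.61 ± 0.60, toxic minus non-toxic (limma adjusted p = 1, unadjusted p = 0.0243). It was dim, with 2 of 5 toxic and 4 of 5 non-toxic arrays above background, and read 3.01, 4.61, 1.89, 4.13 and 1.90 in toxic leaf and 5.77, 4.91, 3.90, 4.90 and 4.11 in non-toxic leaf.

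**Figure D5:**
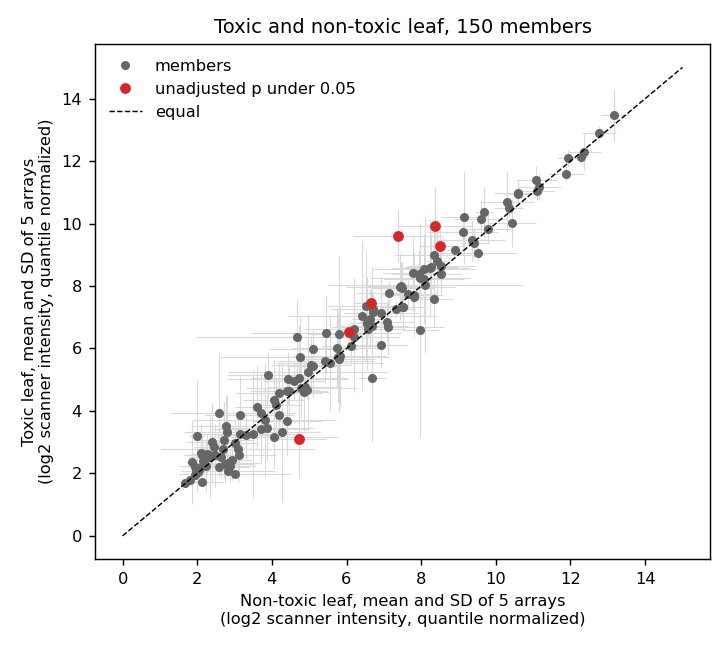
Mean and SD of 5 toxic leaf arrays against those of 5 non-toxic leaf arrays (log2 scanner intensities, quantile normalized) for the 150 contigs; red points have an unadjusted p under 0.05 and the dashed line marks equal levels. The points follow the line, and contig01636 (9.60 against 7.39) stands farthest above it among the red ones.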

How the data were processed

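RNA of 21 seed and 10 leaf samples was labelled with cyanine-3 and hybridized to Agilent 8x60K arrays on 4 slides. The authors deposited scanner output whose intensity values are, per the file headers, background-subtracted by Agilent Feature Extraction 10.5.1.1 on a linear scale. They also deposited log2 values per probe, for which the methods name a background correction by spatial detrending, spot averaging, imputation and quantile normalization. These log2 values have array medians of 5.44 to 5.68. Their rank correlation with the intensities was 0.95 to 0.992 on slides 1 to 3 but 0.921 to 0.954 on slide 4. The cause of that difference was not tested.

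Levels and the rule used the deposited log2 values. For folds, background flags and the leaf test, spots of a probe were averaged from the intensities, outlier spots dropped, log2 taken, missing values imputed from 10 neighbours (848 values) and arrays quantile normalized. Fold bounds use the lowest signal well above background on each array. Tests were made with limma 3.58.1 in R 4.3.3, and tables with pandas 2.3.3. A call needed an adjusted p under 0.05, and 5 arrays a group limit the precision. Alternatives in scaling, probe choice, range limit, slides and arrays left out are given in the closing section. Scripts were tested on simulated data. Names were taken from the annotation tables of the study and from RefSeq.

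The contigs named are the 10 highest scores, the 2 contigs on either side of the limit, up to 4 per list, the 5 highest and 5 lowest in leaf, and leaf calls (none was made). Exceptions are marked, and contig01636, contig01324, contig14308, contig05204, contig12313, contig15089, contig13466, contig21932, contig22040, contig13843 and contig03152 were also chosen after their values were seen. The members and lists were chosen with earlier results of these data known.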

Additional observations from a re-analysis of the deposited data

Results flagged for a closer look

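In groups of 4 or 5 arrays of the contigs named by rule, 9 of 170 held an array whose gap to its nearest neighbour took most of the range, where chance gives about 8.5. The share of the range taken by the gap is given in each case, with deposited log2 values. In seed, contig19695 was low in stage V replicate 2 (0.843; the others at 11.06 to 11.17), contig07081 was low in stage II replicate 1 (0.926; 6.20 against 7.03 to 7.10), and contig11591 was high in stage VI replicate 4 (0.875; 6.43 against 6.11 to 6.15). In non-toxic leaf, contig03655 was high in replicate 4 (0.748, at 8.79), contig00251 was high in replicate 5 (0.79, at 6.51) and contig15908 was low in replicate 2 (0.748, at 4.88). In toxic leaf, contig07081 was high in replicate 4 (0.745, at 10.97), contig14286 in replicate 3 (0.747, at 4.27) and contig00057 in replicate 1 (0.774, at 10.77). Of the 9, 4 were on slide 4. Stages I, III and IV, with 3 arrays, were not examined in this way.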

How the results depend on the processing

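Membership depended on the choices of the rule. Of the 150 contigs, 80.7% were kept with quantile normalized intensities, 81.3% with normexp correction, 72.7% with scaling to the 75th percentile, 88.7% with stage medians, 72.0% with a range limit of 2, 88.0% without the seed arrays on slide 4, and between 88.7% and 99.3% when 1 seed array was left out. Fewer were kept with the mean over all probes of a contig (55.3%), with the brightest sense probe only (63.3%) and with a range limit of 1 (54.0%), where the cause was not tested beyond the change of rule itself. Without both stage I replicate 3 and stage II replicate 1, an alternative chosen after seeing the data, 92.7% were kept. With sense probes only, 135 of the 150 scored above 0 and 102 above 1, and with the mean over all probes 148 and 124. Among the contigs named by rule, 4 scores turned below 0: contig02477 with the mean over all probes (-0.93), and contig02026 (-0.36), contig07081 (-0.48) and contig02983 (-0.41) with sense probes only. The leaf classes kept their sizes, with 4 or 5 contigs at or above the late seed under every alternative run. In the leaf test, 0 of the 150 were called under any alternative. Over all contigs 3 were called with all 31 arrays in the fit and 17 with the 6 leaf arrays on slides 1 to 3, the cause not being tested, and 0 under the others, leaving out each leaf array included. With slide as a replicate block, since arrays of 1 slide deviated together (r of 0.32 to 0.58), 0 contigs were called, and 6 of the 150 had an unadjusted p under 0.05, against 807 of all 19838. With the deposited log2 values these were 23 and 1541, with 0 called. Averaging leaf arrays whose names carry the same number, 3 against 3, also gave 0. Scaling to the 75th percentile moved the median toxic minus non-toxic difference of all contigs from 0.00 to 0.09 (log2) and that of the 150 from 0.16 to 0.38. Signals near background, at stages I and II and in leaf, limit how large the steps of dim contigs can be measured.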
